A study of Mus musculus with 6 samples.

Results

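RNAseq read counts of 44 genes of the osteoclast podosome and sealing zone were followed in Slc37a2 KO and WT osteoclasts. The genes were taken as a list of symbols that covers the kinases, adhesion adaptors, actin nucleation machinery, actins, myosins and small GTPases of these structures, with the integrins left out. All 44 symbols were found among the 22601 genes of the deposited table, and all 44 passed the filter on low counts that left 13483 genes for testing. The rule used gene symbols alone, and the list of symbols was drawn up with earlier results of these data known.

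The study compared mice homozygous for the Slc37a2 tm2a(KOMP)Wtsi allele, on a C57BL/6N background, with WT littermates. The labels describe bone marrow macrophages that were turned into osteoclasts over 5 days with RANKL (10 ng/ml) and M-CSF (2 ng/ml), and all 6 cultures received both factors. The methods section of the study instead describes RNA from whole femurs and tibias for RNAseq, so the source was checked on marker genes below. Each column of counts is headed by a genotype, a code, an F and an age, which is 11 weeks in all 6. What the code and the F stand for is not said in the headings. The codes are K090, L080 and L082 for the 3 WT libraries and K089, L078 and L081 for the 3 KO libraries. Values are given below in this order, WT before KO, as CPM, which is a count divided by the size of its library, the size being scaled by the trimmed mean of M-values (TMM) except where a value is called unscaled. Because no heading carries a replicate number, the libraries were not paired, and nothing beyond the codes in the headings says how separate the cultures were.

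An osteoclast holds on to bone through podosomes, small columns of branched actin with a ring of adhesion proteins around each. On bone the podosomes pack into the sealing zone, a belt of actin that closes off the patch of bone under the ruffled border, where acid and proteases are released. Src and Pyk2 start the signalling from integrins, WASP and cortactin activate the Arp2/3 complex that branches actin, and cofilin, profilin and gelsolin turn the filaments over. Slc37a2 is a sugar transporter of the secretory lysosomes that fuse at the ruffled border, inside the ring that these genes build.

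Libraries held between 27552183 and 42522292 counts, and TMM factors ran from 0.931 to 1.06. Counts of Slc37a2 itself were 75789, 60889 and 76013 in WT and 1233, 1446 and 1043 in KO, so every heading matched the targeted gene. Its level was 2149 ± 292 CPM in WT and 38.1 ± 6.66 CPM in KO (SD, n = 3 each), and KO retained 1.77% of the WT level (log2 fold change -5.82, SE 0.20, adjusted p = 7.07e-04 by the quasi-likelihood test of edgeR after Benjamini-Hochberg adjustment). It was the 1 gene called among all those tested.

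No podosome or sealing zone gene was called as different between the genotypes. At an adjusted p below 0.05 by the quasi-likelihood test, 0 of 44 were called, beside 0.00742% of all genes, and DESeq2's Wald test and the likelihood ratio test of edgeR also called 0 of 44. At an unadjusted p below 0.05 the count was again 0 of 44 by each of these 3 tests, beside 0.712% of all genes in the quasi-likelihood test. The smallest p in the list belonged to Pstpip1 (adjusted p = 0.969 by the quasi-likelihood test of edgeR after Benjamini-Hochberg adjustment). In RNA from whole cultures, fewer cells of a type and less RNA per cell cannot be told apart, and this holds for every level below.

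The estimates were small and mostly a little above 0. Their median log2 fold change, KO over WT, was 0.08, with all genes at -0.02, and they ran from -0.17 for Myo1f to 0.37 for Rhou. Estimates lay above 0 in 33 of 44 genes, compared with 43.8% of all genes and with 52.7% of the 6194 genes at or above the lowest mean level in the list (26.7 CPM, Wasl). For 43 of 44 the 95% interval stayed within a 2-fold change in either direction, and Rhou, at -0.62 to 1.36, was the exception. The same held for 78.4% of all genes and for 95.7% of those at or above 26.7 CPM. In 40 of 44 genes the log2 range of the 3 WT libraries alone exceeded the genotype difference, beside 89.2% of all genes.

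**Figure D1:**
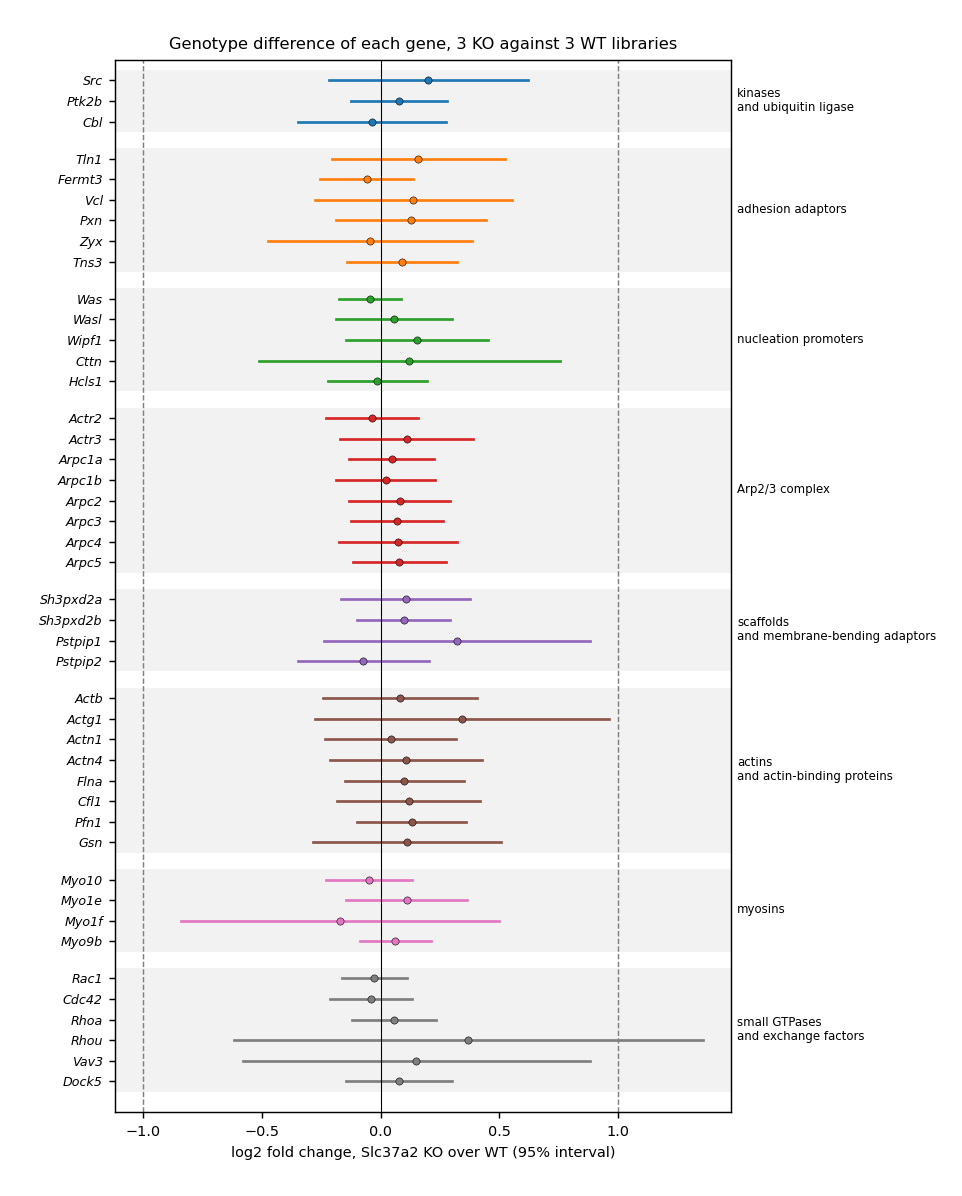
Log2 fold change of each gene, Slc37a2 KO over WT (x axis), with its 95% interval from the quasi-likelihood fit (line) and estimate (point), grouped by role (3 libraries per genotype). Dashed lines mark a 2-fold change in either direction, every interval crosses 0, and the interval of Rhou alone reaches past a dashed line.

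Of the kinases and the ubiquitin ligase, Src, the tyrosine kinase without which osteoclasts form no ruffled border, had the highest level. Src measured 416, 450.4 and 507 CPM in WT and 603, 397 and 579 CPM in KO, a log2 fold change of 0.20 (95% interval -0.22 to 0.62). The KO libraries held both the highest and the lowest of the 6 values. Ptk2b, which encodes the adhesion kinase Pyk2, lay between 157 and 191 CPM (log2 fold change 0.08). Cbl, a ubiquitin ligase recruited by Src, ran the other way across libraries, at 148, 144 and 117 CPM in WT and 120.2, 153 and 125 CPM in KO (log2 fold change -0.04). Its groups overlapped too, with KO L078 highest and WT L082 lowest.

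Among the 6 adhesion adaptors, estimates were above 0 for 4 and below 0 for 2. Talin 1 (Tln1), which links integrin tails to actin and activates them, was the most counted, at 1444, 1444 and 1655 CPM in WT and 1939, 1369 and 1762 CPM in KO (log2 fold change 0.16, 95% interval -0.21 to 0.52). Its lowest library and its 2 highest libraries were all KO. Vinculin (Vcl), which strengthens the link between talin and actin, measured 291, 299.9 and 404 CPM in WT and 425, 307 and 364 CPM in KO (log2 fold change 0.14). Paxillin (Pxn), a docking protein of adhesions, lay between 369 and 501 CPM and Tns3, a tensin that binds integrin tails, between 1147 and 1335 CPM, each with KO K089 highest and KO L078 lowest. Kindlin-3 (Fermt3), the integrin activator of blood cells, spanned 302 to 358 CPM and zyxin (Zyx), a LIM protein of strained actin, 49.5 to 76.3 CPM. For both of these it was a WT library that was highest and a WT library that was lowest.

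The 5 nucleation promoters act upstream of Arp2/3. Was, which encodes WASP of blood cells, was the only gene of the 44 whose groups did not overlap, at 99.5, 93.6 and 93.0 CPM in WT against 92.9, 91.9 and 92.9 CPM in KO. Lower values in every KO library were found for 2.81% of all genes and higher values in every KO library for 1.5%, while 0 of 44 were of the second kind and either kind held for 4.31% of all genes. The gap between the lowest WT and the highest KO library was far below the WT spread of 3.57 CPM (SD, n = 3), the log2 fold change was -0.04 (95% interval -0.17 to 0.09), and the groups overlapped with DESeq2's size factors and with upper quartile scaling. Wasl, the broadly expressed relative of Was, spanned 24.6 to 31.0 CPM, with KO L081 lowest and KO L078 highest.

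Wipf1, whose product WIP holds and stabilizes WASP, measured 310.0, 320.4 and 341 CPM in WT and 403, 297 and 379.9 CPM in KO (log2 fold change 0.15, 95% interval -0.14 to 0.45), the largest estimate of the 5. Cortactin (Cttn), which binds Arp2/3 at branch points, varied more between libraries than between genotypes, at 129, 145 and 232 CPM in WT and 218, 139 and 194 CPM in KO (log2 fold change 0.12, 95% interval -0.51 to 0.76). WT L082 was its highest library and WT K090 its lowest. Hcls1, the cortactin relative of blood cells, lay between 176 and 211 CPM and its estimate of -0.01 turned to 0.00423 with DESeq2's size factors.

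The 8 measured subunits of the Arp2/3 complex stayed close together. Estimates were above 0 for 7 and below 0 for Actr2 (log2 fold change -0.04), their median was 0.07, and the widest interval, that of Actr3, ran from -0.17 to 0.39. Arpc1b was the most counted, at 903, 885 and 871 CPM in WT and 927, 821 and 951 CPM in KO, and Actr3, one of the 2 actin-related subunits, had the largest estimate (log2 fold change 0.11) from 752, 719 and 794 CPM in WT and 874, 691 and 878 CPM in KO. In 7 of the 8 subunits KO L078 held the lowest of the 6 TMM-scaled values, and in Arpc2 WT L080 did. This tally depends on the scaling, since KO L078 had the largest TMM factor (1.06), by which its values are divided. It was not counted over all genes. The highest library of each subunit lay no more than 1.28-fold above its lowest.

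Scaffolds and membrane-bending adaptors numbered 4. Pstpip1, an F-BAR adaptor that binds WASP, had the largest estimate of the 4, from 456, 462 and 652 CPM in WT and 749, 464 and 751 CPM in KO (log2 fold change 0.32, 95% interval -0.24 to 0.88). KO L078 sat with the 2 lower WT libraries while KO K089 and KO L081 sat above all WT libraries. Its relative Pstpip2, an F-BAR protein that restrains osteoclast formation, went the other way at 61.3, 62.2 and 47.3 CPM in WT and 52.5, 56.9 and 53.1 CPM in KO (log2 fold change -0.07). The Tks scaffolds of podosomes, Sh3pxd2a (Tks5) and Sh3pxd2b (Tks4), spanned 333 to 421 CPM and 167 to 203 CPM, with log2 fold changes of 0.11 and 0.10.

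All 8 actins and actin-binding proteins had estimates above 0, with a median of 0.11. Beta-actin (Actb) measured 3978, 3746 and 4252 CPM in WT and 4668, 3731 and 4272 CPM in KO (log2 fold change 0.08, 95% interval -0.24 to 0.41). Gamma-actin (Actg1) had the largest estimate of the group, from 589, 627 and 822 CPM in WT and 1055, 563 and 971 CPM in KO (log2 fold change 0.34, 95% interval -0.28 to 0.96). For both actins the highest and the lowest library were KO K089 and KO L078. The remaining members were the crosslinkers Actn1, Actn4 and Flna, the severing proteins Cfl1 and Gsn, and the monomer-binding Pfn1, and their log2 fold changes ran from 0.04 for Actn1 to 0.13 for Pfn1. Actn1 spanned 611 to 776 CPM and its relative Actn4 556 to 726 CPM (log2 fold change 0.11). Gelsolin (Gsn), which cuts and caps filaments, had the widest range of these as a fold, 1.49-fold from 559 CPM in KO L078 to 831 CPM in KO K089.

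Of the 4 myosins, Myo1f had the lowest estimate, which was also the lowest of the 44 genes. This class I myosin of immune cells measured 403, 357 and 217 CPM in WT and 224, 373 and 269 CPM in KO (log2 fold change -0.17, 95% interval -0.84 to 0.50). WT K090, WT L080 and KO L078 were its 3 highest libraries, as they were for Cbl and Pstpip2. Its relative Myo1e was highest in the other 3, at 702, 700.2 and 759 CPM in WT and 845, 678 and 809 CPM in KO (log2 fold change 0.11). Myo10, the filopodial myosin, spanned 361 to 413 CPM, and Myo9b, a class IX myosin, 219 to 242 CPM.

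The small GTPases and their exchange factors split into steady and variable members. Rac1, which drives branched actin at the cell edge, lay between 340.3 and 352 CPM, and its 1.03-fold range was the narrowest of the 44. Cdc42, the activator of WASP, measured 783, 808 and 782 CPM in WT and 794, 739 and 775 CPM in KO (log2 fold change -0.04), and Rhoa, which governs actomyosin tension, lay between 393 and 450.5 CPM. Dock5, the Rac exchange factor that osteoclasts need for the sealing zone, spanned 671 to 805 CPM (log2 fold change 0.08). By contrast Rhou, an atypical Cdc42 relative found at podosomes, measured 49.3, 51.0 and 101 CPM in WT and 109.7, 46.6 and 104 CPM in KO (log2 fold change 0.37, 95% interval -0.62 to 1.36). Rhou thus fell into 3 libraries near 50 CPM and 3 at or above 100 CPM, and each set held both genotypes. Vav3, a Rac exchange factor that osteoclasts need to spread and resorb, measured 51.3, 44.0 and 71.2 CPM in WT and 77.6, 37.5 and 69.9 CPM in KO (log2 fold change 0.15, 95% interval -0.58 to 0.88), again with WT L082 beside KO K089 and KO L081.

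The libraries differed from one another in the same way over much of the list. The 3 highest of the 6 libraries were WT L082, KO K089 and KO L081 in 27 of 44 genes (61.4%), while this held for 20.8% of all genes, and the count was 27 with DESeq2's size factors and with upper quartile scaling but 17 (38.6%, beside 11.7% of all genes) when library totals alone set the scale. The other 3 libraries were highest in Cbl, Pstpip2 and Myo1f, beside 22.6% of all genes, and in 10 members (37.0% of all genes) with library totals alone. This tally was chosen after the values were seen, and the shares of all genes beside it were not matched for level. The median deviation of the 44 genes from their own mean was -0.06, -0.07 and 0.02 on the log2 scale for WT and 0.14, -0.11 and 0.09 for KO. KO L078 thus lay on the side of WT K090 and WT L080, and WT L082 lay between them and the other KO libraries.

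The most variable genes by the SD of log2 CPM over the 6 libraries were Rhou (0.60), Vav3 (0.43) and Myo1f (0.39). The highest library exceeded the lowest by 2.36-fold in Rhou, 2.07-fold in Vav3, 1.87-fold in Actg1, 1.86-fold in Myo1f and 1.79-fold in Cttn. The median over the 44 genes was 1.26-fold, below the 1.34-fold of all genes. The 2 medians were not matched for level, and the median gene of the list had a higher mean CPM than 97.1% of all genes.

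**Figure D2:**
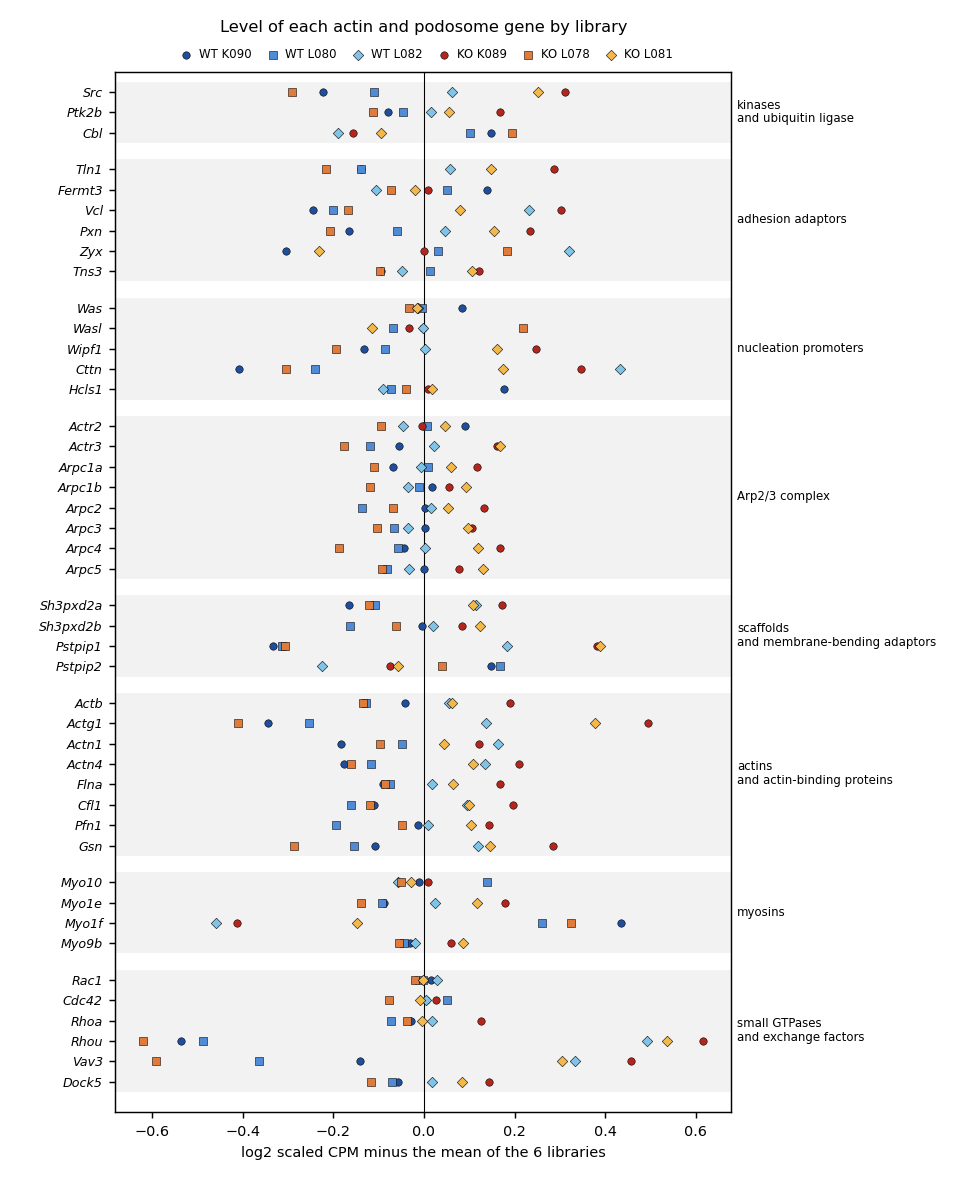
Level of each gene in each library as log2 scaled CPM minus the mean of the 6 libraries (x axis), grouped by role, with WT libraries in blue shades and Slc37a2 KO libraries in red to yellow. KO K089 and KO L081 lie mostly on the right with WT L082, KO L078 lies mostly on the left with WT K090 and WT L080, and Myo1f, Cbl and Pstpip2 show the opposite order.

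Leaving out KO L078 changed these counts most. Without it the median log2 fold change rose to 0.15, 9 of 44 genes (20.5%) had an unadjusted p below 0.05, and the groups of 26 (59.1%) did not overlap. All genes moved as well, with 20.1% at an unadjusted p below 0.05 and 41.6% not overlapping. Without WT L082, 4 of 44 did not overlap and 1 had an unadjusted p below 0.05, beside 16.4% and 1.98% of all genes. In none of the 6 fits that each left out a library was any of the 44 called at an adjusted p below 0.05 by the quasi-likelihood test of edgeR, and the lowest adjusted p was 0.227, for Src without KO L078.

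The summed osteoclast markers and the summed macrophage markers split along the same libraries, in opposite directions. The 14 osteoclast markers, among them Acp5, Ctsk and Mmp9, were all present and summed to 43104, 55727 and 61359 unscaled CPM in WT and 75167, 47717 and 68817 in KO. Their 3 highest sums were those of KO K089, KO L081 and WT L082, and Mmp9, Acp5 and Ctsk made up most of each sum. Of the 14, 7 had their own 3 highest values in these libraries. Others did not, with Mmp9 higher in WT L080 than in WT L082, Nfatc1, the master factor of osteoclast formation, highest in WT K090 (523 unscaled CPM), and the calcitonin receptor Calcr highest in WT L080 (153) and lowest in WT L082 (88.1). The 12 macrophage markers, also all present, summed to 7336, 6371 and 3331 unscaled CPM in WT and 3076, 6828 and 3472 in KO, with the lowest sums in those 3 libraries. The other 3 libraries were the highest for 10 of the 12. Within that list Adgre1, which encodes F4/80, measured 324, 279 and 79.4 unscaled CPM in WT and 59.9, 278 and 91.4 in KO, whereas Csf1r, the M-CSF receptor that osteoclasts keep, lay between 1826 and 1951.

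The 12 interferon response genes summed to 298, 194 and 118 unscaled CPM in WT and 101, 226 and 129 in KO, and the 10 proliferation genes to 1236, 890.2 and 871 in WT and 557, 1209 and 689.6 in KO. Both sums were therefore lower in WT L082, KO K089 and KO L081 than in the other 3 libraries, as were 12 of the 12 interferon genes and 7 of the 10 proliferation genes taken singly. The 14 stromal and osteoblast markers followed another order, at 830.1, 1213 and 1550 unscaled CPM in WT and 643, 1856 and 585 in KO. The 6 smooth muscle and myofibroblast markers did so too, at 247, 529 and 723 in WT and 256, 722 and 201 in KO. Red cell, lymphocyte and neutrophil markers, which marrow and whole bone would carry, reached at most 0.0674, 0.102 and 1.4 unscaled CPM in sum, with 1 of 5, 2 of 6 and 6 of 8 listed genes present in the table. Platelet markers (4 of 5 present) summed to 4.01 to 9.43 and the 9 immediate early and heat shock genes to 642 to 853 unscaled CPM. The part of these cell types in the levels of the 44 genes was not tested.

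**Figure D3:**
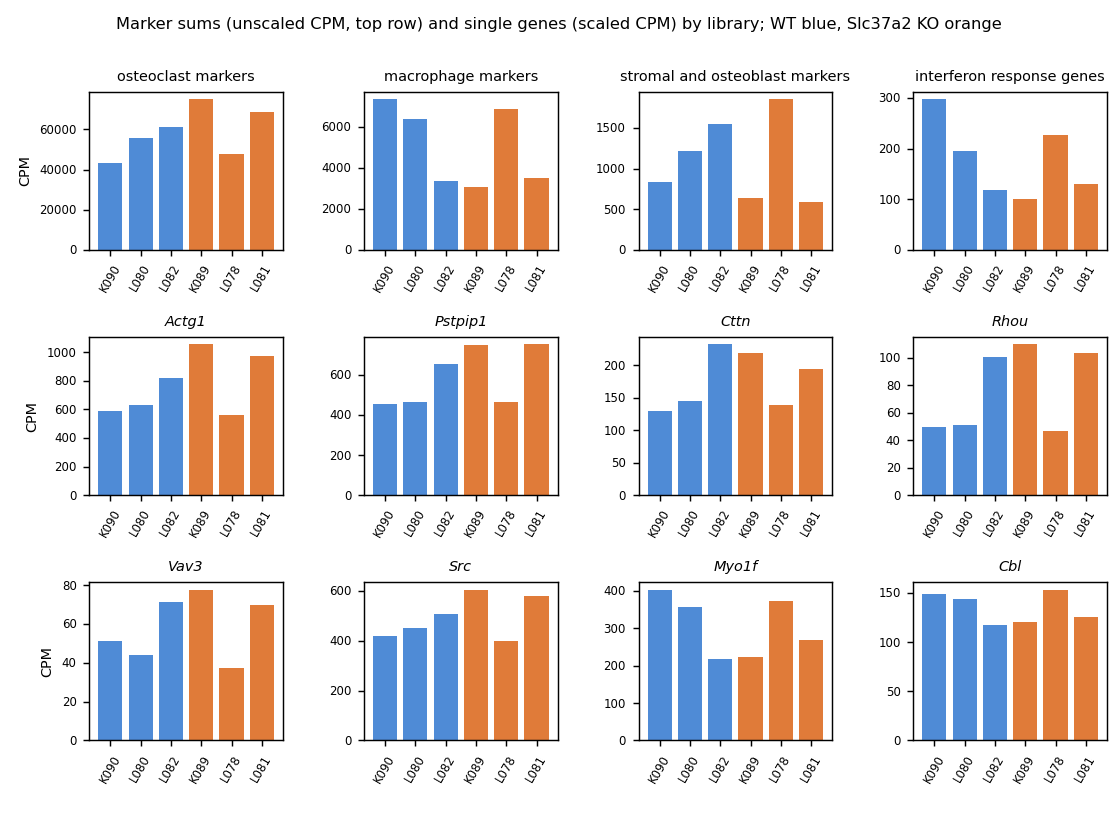
Summed unscaled CPM of 4 marker lists (top row) and scaled CPM of 8 podosome genes (lower rows) in each library, with WT bars in blue and Slc37a2 KO bars in orange. Osteoclast markers and Actg1, Pstpip1, Cttn, Rhou, Vav3 and Src share their 3 highest libraries, which are the 3 lowest for macrophage markers, interferon response genes and Cbl.

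The genes were compared with each other per kb of their principal transcript in the GENCODE M21 annotation of GRCm38. Levels spanned 348-fold, and the median gene had a higher mean CPM than 97.1% of all genes tested. Actb led at 2140 ± 188 CPM per kb (SD, n = 6 libraries), followed by the actin turnover proteins Pfn1 (945 ± 76.7) and Cfl1 (655 ± 67.8) and the Arp2/3 subunits Arpc2 (496 ± 32.4) and Arpc3 (411 ± 24.8). Each of these lay above the next in all 6 libraries. Actg1 (395), Cdc42 (370), Pstpip1 (316), Actr3 (306), Arpc1b (288) and Gsn (264) came next, and neighbours in that order overlapped in range.

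The lowest levels were those of Cbl (11.8), Vav3 (11.7) and Wasl (6.14 CPM per kb). The ranges of 35 of the 43 neighbouring pairs overlapped, so that beyond the top of the order only Hcls1 over Rac1, Myo9b over Sh3pxd2b, Zyx over Cbl and Vav3 over Wasl were separated. The order depended on the transcript that sets the length. With all annotated exons merged in its place, Actb stayed at rank 1 and Cfl1 and Arpc2 took ranks 2 and 3, but Pfn1 fell from rank 2 to rank 4, Pstpip1 from 8 to 13 (316 to 154 CPM per kb), Arpc3 from 5 to 15 (411 to 134) and Rhoa from 16 to 28 (188 to 55.1). Arpc3, Rhoa and Pxn moved by more than 5 ranks, and the other 41 genes by 5 or fewer. The Arp2/3 subunits, of which each complex holds single copies with Arpc1a and Arpc1b as alternatives, ranged from 44.6 CPM per kb for Arpc1a and 109 for Arpc4 through 217 for Actr2 and Arpc5 to 496 for Arpc2. On merged exons Arpc2 (351) and Arpc1a (28.4) remained the highest and the lowest, while Arpc5 (182) came next to the top and Arpc3 sixth.

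**Figure D4:**
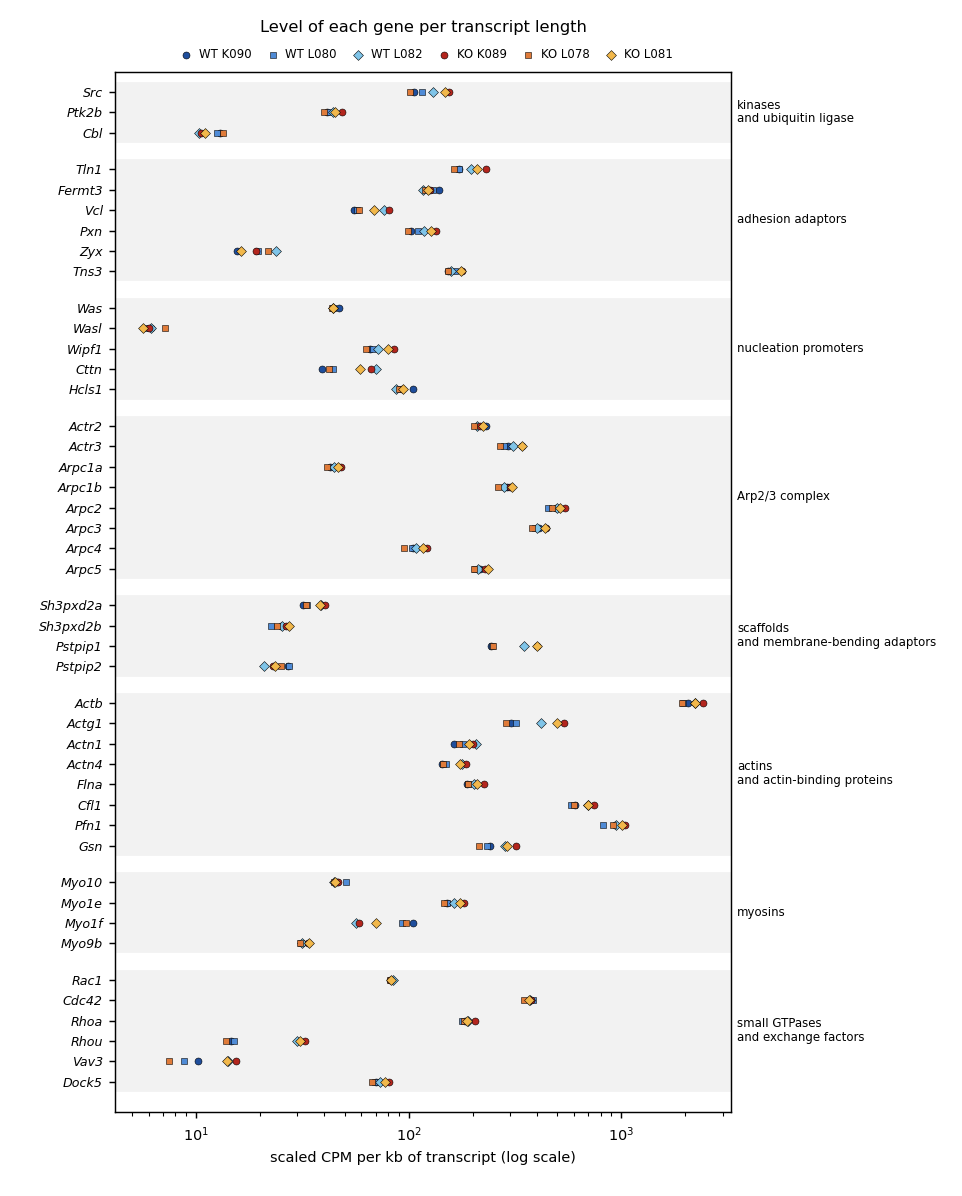
Scaled CPM per kb of principal transcript (x axis, log scale) for each gene in each of the 6 libraries, grouped by role. Actb lies highest at 2140 on average and Wasl lowest at 6.14, and in 35 of 43 pairs of neighbours in the order of levels the ranges of the 6 libraries overlap.

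Reads of some genes could be shared with a neighbour, and the strand setting of the counting was not given in the sources used here. In 15 of 44 genes the annotated exons overlapped those of another gene. For Rac1 (chr5:143503634-143528036, minus strand) 51.4% of the merged exon length overlapped Daglb on the opposite strand. The shares were 25.5% for Vcl with Ap3m1, 18.2% for Arpc1b with Pdap1 and 16.5% for Cfl1 with Snx32, all on opposite strands, and 12.2% for Arpc4 with Ttll3 on the same strand.

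Balance within 8 pairs of related genes was compared next, because a ratio taken within a library does not depend on scaling. None of the 8 was called as different between the genotypes by a two-sided exact permutation test over libraries, in which 3 against 3 can give no p below 0.1, and in all 8 the groups overlapped. Actb exceeded Actg1 6.86-, 6.07- and 5.26-fold per kb in WT and 4.50-, 6.74- and 4.47-fold in KO (log2 difference -0.23, exact permutation p = 0.3, adjusted p = 0.8 over 8 pairs). The ratio was lowest in KO K089, KO L081 and WT L082, where Actg1 was high. The Pstpip2 to Pstpip1 ratio per kb had the lowest p of the 8, at 0.111, 0.110 and 0.0597 in WT and 0.0576, 0.101 and 0.0581 in KO (log2 difference -0.37, exact permutation p = 0.2, adjusted p = 0.8). On merged exons this ratio ran from 0.115 to 0.220, with the fold differences between libraries unchanged because a length is a constant factor.

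The myosins Myo1f and Myo1e stood at ratios of 0.693, 0.616 and 0.345 per kb in WT and 0.320, 0.665 and 0.401 in KO (log2 difference -0.26, exact permutation p = 0.7). Hcls1 exceeded Cttn in every library per kb, from 1.23-fold in WT L082 to 2.66-fold in WT K090 (log2 difference -0.15, exact permutation p = 0.8). These 4 ratios moved together between libraries, and each was lower in WT L082, KO K089 and KO L081 than in the other 3.

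The other pairs were steadier. Was exceeded Wasl 6.09- to 7.76-fold per kb, and Arpc1b exceeded Arpc1a 6.17- to 6.84-fold. Actn1 stood at 1.08 to 1.20 times Actn4 and Sh3pxd2b at 0.660 to 0.787 times Sh3pxd2a. The log2 differences between the genotypes in these 4 pairs were -0.09, -0.03, -0.06 and -0.01.

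**Figure D5:**
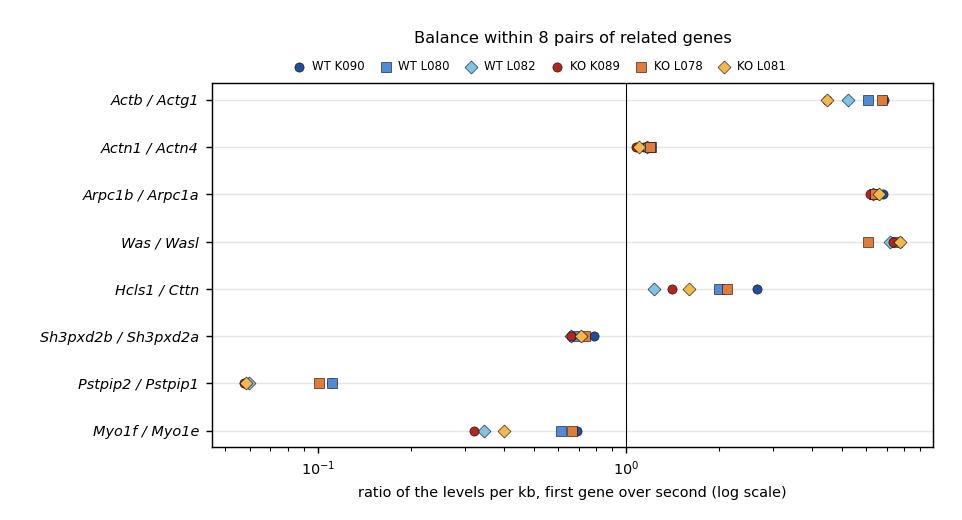
Ratio of the levels per kb within 8 pairs of related genes (x axis, log scale) in each of the 6 libraries, with the first-named gene over the second. Actb to Actg1, Hcls1 to Cttn, Pstpip2 to Pstpip1 and Myo1f to Myo1e are lower in WT L082, KO K089 and KO L081, and the genotypes overlap in every pair.

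Similar sequences could exchange reads within a pair, so the coding sequences of the principal transcripts were aligned. Identical runs and shared windows were sought over the whole principal transcripts. Actb and Actg1 were 88.6% identical in the coding part, and their longest identical run was 62 nt. Of the 50-nt windows of Actb, 1.60% also occurred in Actg1, but 0 of its 100-nt windows did. Actn1 and Actn4 were 80.5% identical in the coding part, with a longest run of 65 nt over the transcripts. In the other 6 pairs identity was between 65.3% and 73.9%.

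Promoters of the listed genes were searched for sequence motifs. RefSeq promoter windows of GRCm38.p6, from 250 bases before to 50 after the start site, matched 36 of 44 genes. The CArG box, the site of serum response factor, which is known to drive actin and adhesion genes, was present in 4 of 36 (11.1%) and in 1.81% of 27025 genes. Those 27025 were all genes with a promoter window, whether or not they passed the filter on low counts. The motif TGANTCA, in which N is any base, was in Actn4, Hcls1, Vav3 and Zyx. That was also 4 of 36 (11.1%), beside 8.97% of all genes. It takes in the site of AP-1 factors but is looser, so these are not counts of AP-1 sites. Both motifs read the same on either strand. All 4 genes with a CArG box were among the 27 highest in WT L082, KO K089 and KO L081. Of those with TGANTCA, Actn4 and Vav3 were too, while Hcls1 and Zyx were not. Whether either motif has a part in that pattern was not tested. The stretches with a CArG box are shown, and capitals mark the box. They lie at chr11:120348526-120348625 on the minus strand for Actg1, chr14:20929148-20929247 on the plus strand for Vcl, chr9:70207278-70207349 on the plus strand for Myo1e and chr6:113377863-113377962 on the plus strand for Arpc4.
Actg1: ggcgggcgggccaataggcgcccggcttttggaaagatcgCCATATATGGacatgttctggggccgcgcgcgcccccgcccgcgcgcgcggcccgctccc
Vcl: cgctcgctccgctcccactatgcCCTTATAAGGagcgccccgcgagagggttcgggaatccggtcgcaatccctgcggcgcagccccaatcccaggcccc
Myo1e: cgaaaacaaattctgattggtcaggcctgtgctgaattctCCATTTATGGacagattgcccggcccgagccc
Arpc4: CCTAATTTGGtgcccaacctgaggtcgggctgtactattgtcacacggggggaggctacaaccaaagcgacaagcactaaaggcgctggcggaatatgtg

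The box began 90 bases before the start site in Actg1, 227 in Vcl, 32 in Myo1e and 250 in Arpc4. Log2 fold changes of these genes between the genotypes were 0.34, 0.14, 0.11 and 0.07, each with an interval across 0. A match gives letters only, and binding at these windows was not measured.

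Other genes of actin assembly and adhesion, a list of 119 that held the WAVE complex, formins, capping and severing proteins, bundlers, myosin II, adhesion adaptors and GTPase regulators, were tested in the same fit. Of 118 tested, 0 were called at an adjusted p below 0.05 by the quasi-likelihood test of edgeR, beside 0.00742% of all genes, and 0 had an unadjusted p below 0.05. Estimates were above 0 for 58 and below 0 for 60, with a median log2 fold change of -0.00. The 3 smallest p were those of the formin Fmnl3 (log2 fold change 0.21), the WAVE complex adaptor Abi2 (-0.34) and the formin Diaph1 (0.13), each with an adjusted p of 0.969 by the quasi-likelihood test of edgeR. Intervals of 98 of the 118 stayed within a 2-fold change in either direction. Wasf3, with 13 counts over the 6 libraries, was not tested.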

How the data were processed

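RNAseq libraries of 3 WT and 3 Slc37a2 KO cultures were analysed. The authors deposited whole-number read counts per gene symbol, not normalized, with the build mm10, bcl2fastq 2.20.0.422 and edgeR 3.30.3 named in the submitters' processing notes. Which aligner, counting tool, strand setting and annotation they used is not given in the sources used here. Columns of the authors' own comparison (log2 fold changes and mean log2 CPM, a likelihood ratio score, and p-values with their FDR) were deposited beside the counts and were not used. Headings assigned every column to a genotype, with 0 columns from other samples.

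Counts were fitted with edgeR 4.0.16 under R 4.3.3, using filterByExpr at its defaults, TMM scaling, genotype alone in glmQLFit and glmQLFTest, and p-values adjusted by Benjamini-Hochberg over the 13483 genes tested. Intervals are 95% intervals at the degrees of freedom of the fit (prior 2.35), and the biological coefficient of variation was 20.8%. No 2 libraries agreed within sampling noise (lowest chi-square per degree of freedom 6.72). Lengths, overlaps and coding sequences came from GENCODE M21 (GRCm38), and promoters from RefSeq (GRCm38.p6). Tables and figures were made with Python 3.11.15, pandas 2.3.3, scipy 1.17.1, Biopython 1.88 and matplotlib 3.10.9.

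The list of members and the other gene lists were drawn up with earlier results of these data known. Members were described by role. Values were given for the most counted member and the largest estimate of each role, for those with groups that did not overlap, for both genes of each pair, for the 3 most variable, and for the 3 smallest p of the wider list. Those of other members, and the genes chosen to illustrate each marker list, fall outside that rule. On simulated counts with 200 genes changed by 1 on the log2 scale, over 13364 genes tested, the fit called 137 of them. The simulation gave every gene the same dispersion and no differences shared between libraries, unlike the data. It checked the code and does not give the power of the real comparison. Alternatives used DESeq2 1.42.0, other scalings, filters and fits, the first letter of each code as a term, and each library left out in turn.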

Additional observations from a re-analysis of the deposited data

How the results depend on the processing

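Under all 8 other settings and with each of the 6 libraries left out, 0 of the 44 genes and 0 genes of the wider list were called at an adjusted p below 0.05. Of 352 fold changes of single genes under the other settings, 350 kept their direction, and Hcls1 turned to 0.00423 with DESeq2's size factors and 0.00394 with DESeq2's Wald test. Several settings shared their scaling with the main fit or with each other and gave nearly the same estimates. The 352 values are therefore not separate checks of direction. Genes with groups that did not overlap numbered 0 with DESeq2's size factors and with upper quartile scaling (3.96% and 3.98% of all genes), 2 of 44 without the filter and with at least 1 CPM in 3 libraries (4.48% and 3.97% of all genes), and 0 to 26 with libraries left out (6.91% to 41.6% of all genes). Genes at an unadjusted p below 0.05 numbered 0 to 9 with libraries left out (0 with all libraries), the 9 being without KO L078. Intervals within a 2-fold change numbered 40 to 43. The tally of genes highest in WT L082, KO K089 and KO L081 was 17 with library totals alone, an alternative chosen after seeing the data, as was the merged exon length that moved Pfn1 from rank 2 to 4, Arpc3 from 5 to 15 and Rhoa from 16 to 28 and so changed the top of the order by level.

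With libraries left out, 33 of 44 genes kept their direction throughout. The log2 fold change of the other 11 ran from -0.153 to 0.0503 for Cbl, -0.188 to 0.146 for Zyx, -0.0497 to 0.142 for Wasl, -0.0380 to 0.446 for Cttn, -0.0528 to 0.0781 for Hcls1, -0.0467 to 0.00269 for Actr2, -0.0344 to 0.166 for Actn1, -0.0672 to 0.0102 for Myo10, -0.402 to 0.00926 for Myo1f, -0.0348 to 0.00598 for Rac1 and -0.0224 to 0.411 for Vav3. The cause of these changes was not tested. No paired analysis was possible because the column headings carry no replicate numbers. The printed intervals are for single genes and are not adjusted for the number of genes tested, whereas genes were called at an adjusted p. With 3 libraries per genotype and this spread between libraries, differences inside the printed intervals could go uncalled. So could some that are larger, and the absence of calls does not exclude them.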

Other observations

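Other members of the actin and Arp2/3 families were measured in the same libraries. Smooth muscle actin (Acta2) measured 144, 299 and 417 unscaled CPM in WT and 147, 418 and 115 in KO, so that its 3 highest libraries were WT L080, WT L082 and KO L078, which were also the 3 highest for the stromal and osteoblast markers. Actg2, the actin of visceral smooth muscle, had the same 3 highest libraries over a range of 20.2 to 77.0 unscaled CPM, and skeletal actin (Acta1) reached at most 3.06. Cardiac actin (Actc1) had no more than 1 count in any library. Among the alternative Arp2/3 subunits, Arpc5l lay between 28.7 and 36.1 unscaled CPM and Actr3b had 12 to 20 counts per library.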
